A study of Homo sapiens with 9 samples.

Results

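The circadian clock genes described here were 10 genes, NR1D1, NR1D2, PER1, PER2, PER3, CRY1, CRY2, ARNTL, CLOCK and DBP, found in the count table by exact gene symbol. All 10 were present and all 10 were among the 16874 genes tested, of 58735 in the table. The symbols were picked on earlier results from these same libraries, so the differences of the 10 genes between the groups are given as a description, with no p-value, and support nothing beyond themselves. The cells were U87, a human glioblastoma line, with 3 RNA sequencing libraries in each of 3 groups. C269S cells stably overexpressed mutant IDH1 (IDH1mt, R132H) that also carried C269S, a cysteine changed to serine. IDH1mt cells overexpressed the R132H mutant with that cysteine intact, and PCDH cells carried the vector as control. The series asked how autopalmitoylation of the mutant enzyme, the attachment of palmitate to its own protein, bears on gene expression. No group overexpressed IDH1 without the R132H change, and the labels give neither the number of selected lines per construct nor whether libraries came from separate cultures. A difference between groups therefore cannot be told apart from one between selected lines, and the errors and p-values cover only how these libraries vary, which can be technical. The labels give no hour of harvest and no synchronisation of the cultures.

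The clock is a feedback loop of transcription. CLOCK and ARNTL (also called BMAL1) bind E-box sequences as a pair and activate the PER and CRY genes, whose proteins return to the nucleus and inhibit that pair. A linked loop runs through NR1D1 and NR1D2 (REV-ERB alpha and beta), nuclear receptors that repress ARNTL at ROR elements, where the ROR receptors activate. DBP, with its relatives TEF and HLF, activates genes through D-box sequences. In an unsynchronised culture the cells run out of phase with each other, and a bulk library averages over them. A lower bulk value can mean fewer cells with the transcript, less of it per cell, or another hour of harvest or phase of the clock. These data do not separate those, and the labels do not say whether the groups were harvested at the same hour.

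Libraries held 19108925 to 24803711 counts. IDH1 itself averaged 739 ± 30.3 CPM in C269S, 677 ± 16.5 CPM in IDH1mt and 111 ± 7.97 CPM in PCDH (SD, n = 3 each; CPM are counts scaled to a common library size after TMM). All libraries of both mutants lay far above PCDH, and the C269S libraries lay slightly above the IDH1mt libraries. Of 9 markers set for a glioma line, VIM, CD44 and TNC had group means of 2695 to 4717 CPM, whereas the astrocyte marker GFAP averaged 3.11 to 4.01 CPM, and SOX2 and S100B were too low to test. The 9 markers summed to 10361 to 10662 CPM in C269S, 9570 to 9976 in IDH1mt and 10522 to 10838 in PCDH. The 4 immune markers summed to at most 1.38 CPM in any library, with CD3E at 0 in all libraries, and the 3 epithelial markers to at most 1.43 CPM. The 3 endothelial markers summed to 6.28 to 7.90 CPM in C269S, 7.49 to 9.33 in IDH1mt and 6.41 to 7.10 in PCDH. The 4 neuronal markers summed to 61.5 to 69.9 CPM in C269S, 62.2 to 71.7 in IDH1mt and 55.0 to 61.4 in PCDH, most of it SNAP25. SNAP25 was higher in IDH1mt than in PCDH (log2 fold change 0.26, SE 0.08, edgeR adjusted p = 0.0242). The part of these markers in the differences below was not tested.

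All 10 genes matched RefSeq promoter sequences (GRCh38.p14, 250 bases before to 50 after each transcript start), 15 promoters in all. Windows from 6 promoters are shown as examples of the sequences through which the loop is known to act. The PER2, CRY1 and CLOCK promoters also held matches but are not shown, and these genes were not called in IDH1mt against PCDH. Of the 6 windows shown, 3 belong to genes that were lower in IDH1mt. Each is written 5′ to 3′ on the gene's strand, and capitals mark a match on either strand to the E-box (CACGTG), the E′-box (CACGTT), the D-box (TTANGTAA), the core of a ROR element (TAGGTCA) or a 9-base repeat, AAAGTAGGT, picked on reading the ARNTL sequence.
NR1D1: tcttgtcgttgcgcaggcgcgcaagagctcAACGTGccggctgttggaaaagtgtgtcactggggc
PER1: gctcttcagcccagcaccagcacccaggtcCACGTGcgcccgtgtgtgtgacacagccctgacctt
CRY2: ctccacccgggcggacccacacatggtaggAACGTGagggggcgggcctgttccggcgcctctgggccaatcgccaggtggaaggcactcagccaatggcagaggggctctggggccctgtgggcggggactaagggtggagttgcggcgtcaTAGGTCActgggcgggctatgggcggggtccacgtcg
NR1D2: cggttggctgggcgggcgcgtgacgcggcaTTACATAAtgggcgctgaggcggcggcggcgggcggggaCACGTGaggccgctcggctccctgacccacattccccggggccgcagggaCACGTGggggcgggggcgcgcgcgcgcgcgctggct
PER3: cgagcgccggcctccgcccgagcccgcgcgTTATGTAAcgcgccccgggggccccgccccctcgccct
ARNTL: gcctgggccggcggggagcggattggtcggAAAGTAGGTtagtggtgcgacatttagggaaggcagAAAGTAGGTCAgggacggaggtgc

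The NR1D1 window (chr17:40100722-40100787, minus strand) holds an E′-box, read on the opposite strand, 168 bases before the start. The PER1 window (chr17:8152542-8152607, minus strand) holds an E-box 173 bases before the start, which lies 4102 bases inside the deposited gene span. The CRY2 window (chr11:45847257-45847446, plus strand) holds an E′-box and a ROR element core. The NR1D2 window (chr3:23945897-23946051, plus strand) holds a D-box followed by 2 E-boxes. The PER3 window (chr1:7784084-7784151, plus strand) carries a D-box. In the ARNTL window (chr11:13277750-13277839, plus strand) the repeat occurs on both sides of the start, at -10 and 26, and its later copy overlaps the ROR element core. The earlier copy runs on as TAGGTTA, which the exact search for TAGGTCA did not count.

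Across the 15 promoters, 2 held an E-box, against 7.26% of all 35116 RefSeq promoters, and 5 held an E′-box, against 5.34% of all. A D-box stood in 3 of 15, in NR1D2, PER2 and PER3, against 2.18% of all, and a ROR element core in 2 of 15, in CRY2 and ARNTL, against 1.85%. The 9-base repeat stood in 0.157% of all promoters. The cyclic AMP response element TGACGTCA had no match in the 15, and the DBP promoter matched none of the letters searched. These counts describe 300-base windows only and were not tested. E-boxes and E′-boxes did not overlap each other.

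**Figure D1:**
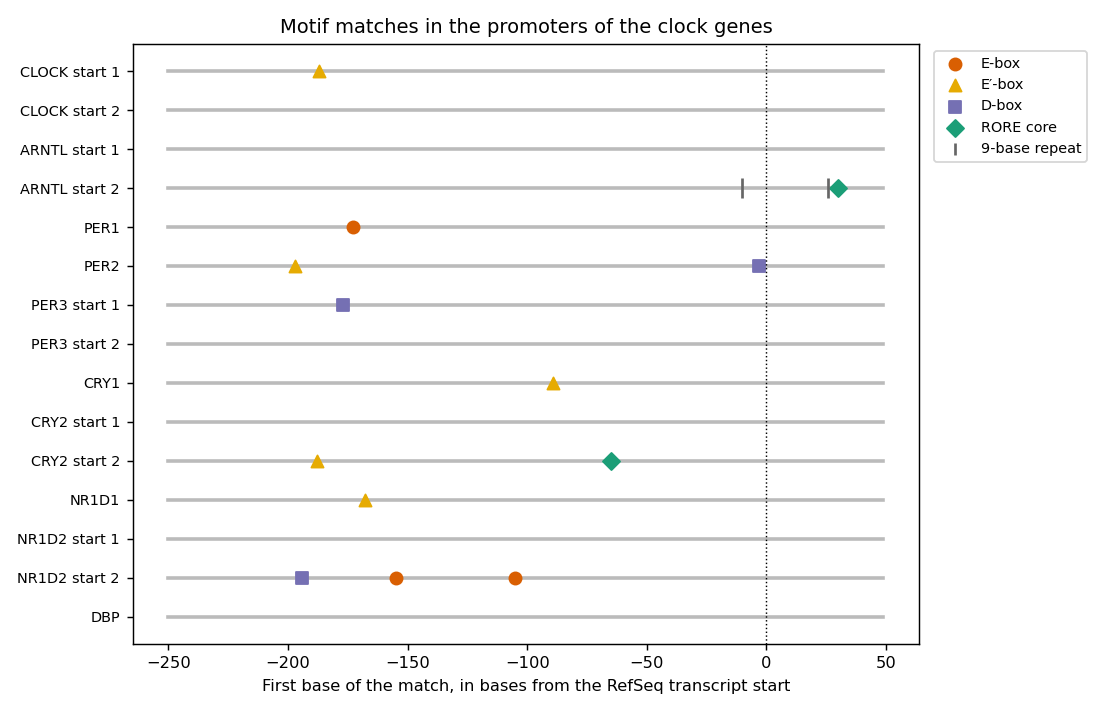
Positions of motif matches in the 15 RefSeq promoters of the clock genes, as the base where each match begins, counted from the transcript start at 0 (dotted line); grey lines span each 300-base window. NR1D2 start 2 carries a D-box and 2 E-boxes, and the ARNTL repeat flanks the start.

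Levels per length were compared as FPKM, the authors' counts scaled for gene length and library total. In PCDH cells NR1D1 stood far above the others at 72.4 ± 3.69 FPKM (SD, n = 3). NR1D2 followed at 17.3 ± 2.02 FPKM and PER1 at 14.7 ± 1.15 FPKM, and their libraries overlapped. CLOCK averaged 6.53 ± 0.764 FPKM and CRY2 5.43 ± 0.519 FPKM, also overlapping. CRY1 (4.25 ± 0.116 FPKM) and PER3 (3.99 ± 0.183 FPKM) overlapped too. Below them ARNTL averaged 3.59 ± 0.140 FPKM, PER2 2.88 ± 0.171 FPKM and DBP 2.28 ± 0.256 FPKM, each clear of its neighbour. In IDH1mt NR1D1 still led at 47.1 ± 1.38 FPKM and DBP was still last at 1.16 ± 0.131 FPKM.

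The IDH1mt libraries were set against PCDH for the effect of the R132H mutant. NR1D1, PER1, CRY2 and DBP fell in IDH1mt, by 1.27-fold to 1.98-fold, while the activators CLOCK and ARNTL differed by at most 0.06 on the log2 scale. The genes that fell thus included a member each of the PER, CRY and REV-ERB families and the output factor DBP. In each family another member did not pass, but differences between members of a family were not tested. Calls rest on edgeR's quasi-likelihood test over all genes, with an adjusted p below 0.05. Of the 10 clock genes 4 were called lower and 0 higher, where 6.90% of all genes tested were called lower and 7.18% higher. With no adjustment, 5 were lower and 1, PER2, was higher at p under 0.05. Of all 16874 genes, 2240 were lower and 2156 higher at that threshold. With library size alone in place of TMM, 35.2% of all called genes were higher, against 51.0%, and the same 4 clock genes were called. The median log2 fold change of the 10 was -0.19, beside -0.01 over all genes.

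CLOCK, the histone acetyltransferase subunit of the activating pair, stood at 78.4, 78.7 and 77.6 CPM in IDH1mt, against 70.7, 74.0 and 87.6 CPM in PCDH. The IDH1mt libraries lay inside the PCDH range (log2 fold change 0.01, SE 0.08). ARNTL, its partner, stood at 26.5, 24.7 and 25.1 CPM in IDH1mt, against 24.1, 23.7 and 25.4 CPM in PCDH. The groups overlapped (log2 fold change 0.06, SE 0.09, 95% interval -0.13 to 0.25).

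NR1D1, which encodes the repressor of ARNTL named above (ENSG00000126368, chromosome 17, 40092787 to 40100725 on GRCh38), stood at 127, 134 and 133 CPM in IDH1mt, against 214, 193 and 201 CPM in PCDH. All IDH1mt libraries lay below all PCDH libraries, a 1.54-fold fall (log2 fold change -0.63, SE 0.06). Its paralog NR1D2 stood at 97.5, 91.9 and 92.7 CPM in IDH1mt, against 92.6, 97.7 and 115 CPM in PCDH. Those groups overlapped (log2 fold change -0.11, SE 0.07), and NR1D2 was not called. NR1D1 overlaps THRA, a thyroid hormone receptor gene on the opposite strand, and the strand setting of the counts is not given in the sources used here. THRA had a log2 fold change of -0.21 (SE 0.09, edgeR adjusted p = 0.122), at 34.2 CPM in IDH1mt and 39.6 CPM in PCDH.

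PER1, an inhibitor of the activating pair (chromosome 17, 8140472 to 8156506), stood at 64.9, 77.6 and 74.9 CPM in IDH1mt, against 102, 112 and 96.3 CPM in PCDH. The groups did not overlap, and PER1 fell 1.43-fold (log2 fold change -0.52, SE 0.08). PER2, of the same family, stood at 23.2, 26.0 and 22.2 CPM in IDH1mt, against 20.7, 20.7 and 18.6 CPM in PCDH. Here every IDH1mt library lay above the PCDH libraries, but PER2 was not called (log2 fold change 0.25, SE 0.10). PER3, the remaining family member, stood at 27.2, 30.8 and 29.4 CPM in IDH1mt, against 32.8, 31.1 and 34.0 CPM in PCDH. All IDH1mt libraries lay below the PCDH libraries, the nearest by a small margin, and PER3 was not called (log2 fold change -0.16, SE 0.09).

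CRY2, a cryptochrome that acts with the PER proteins (chromosome 11, 45847118 to 45883248), stood at 28.1, 25.8 and 26.6 CPM in IDH1mt, against 37.8, 31.4 and 32.7 CPM in PCDH. The groups did not overlap and CRY2 fell 1.27-fold (log2 fold change -0.34, SE 0.09). Its call was lost without IDH1mt replicate 2 (log2 fold change -0.31) and without PCDH replicate 1, the highest library (-0.26). CRY1, the other cryptochrome, stood at 17.8, 18.9 and 19.1 CPM in IDH1mt, against 21.2, 21.7 and 22.3 CPM in PCDH. All IDH1mt libraries were lower, but CRY1 was not called (log2 fold change -0.22, SE 0.10).

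DBP, the D-box activator (chromosome 19, 48630030 to 48637438), moved most, at 6.61, 8.11 and 8.09 CPM in IDH1mt, against 16.6, 15.4 and 13.2 CPM in PCDH. The groups were far apart, with a 1.98-fold fall (log2 fold change -0.99, SE 0.13). SPHK2, a sphingosine kinase gene that overlaps DBP on the opposite strand, had a log2 fold change of 0.31 (SE 0.13, edgeR adjusted p = 0.134). Other genes overlap NR1D2 (NKIRAS1), PER3 (Z98884.1) and CLOCK (TMEM165) on the opposite strand. Of these TMEM165, a Golgi membrane protein gene, rose in IDH1mt (log2 fold change 0.26, SE 0.06, edgeR adjusted p = 0.00135), while NKIRAS1 and Z98884.1 were not called. The remaining overlapping genes were too low to test, and CRY2 had no overlapping gene.

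**Figure D2:**
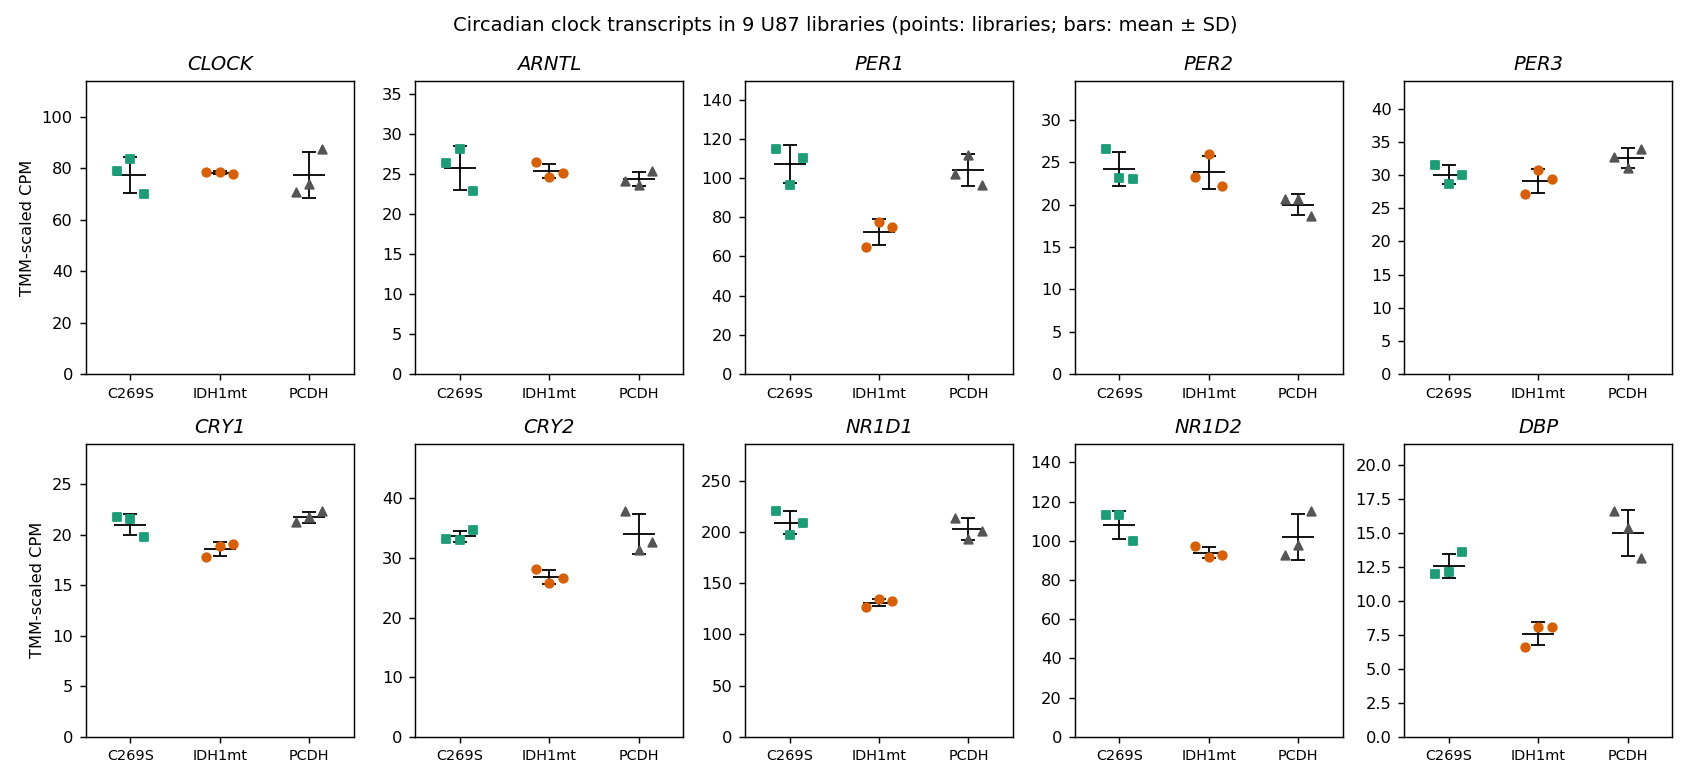
TMM-scaled CPM of each clock gene in the 9 libraries, grouped as C269S, IDH1mt and PCDH from left to right; points are libraries, bars are mean ± SD, and every axis starts at 0. NR1D1, PER1, CRY2 and DBP are lowest in the 3 IDH1mt libraries, whereas the CLOCK and ARNTL groups overlap.

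The C269S libraries were set against PCDH for the effect of the mutant without the cysteine. None of the 10 clock genes was called, with 0 higher and 0 lower in edgeR, DESeq2 or limma, where 0.883% of all genes were called higher and 0.533% lower in edgeR. At an unadjusted p under 0.05 there was 1 gene, PER2, which was higher. Of all 16874 genes, 1040 were higher and 979 lower at that threshold. The median log2 fold change of the 10 was 0.02, beside -0.01 over all genes. This comparison shares the PCDH libraries with the previous one.

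NR1D1 stood at 220, 197 and 209 CPM in C269S, against the PCDH values of 214, 193 and 201 CPM. The ranges overlapped almost fully (log2 fold change 0.04, 95% interval -0.08 to 0.16). PER1, at 115, 96.6 and 110 CPM in C269S, overlapped its PCDH libraries as well (log2 fold change 0.05, interval -0.10 to 0.21). CRY2, at 33.2, 33.0 and 34.7 CPM in C269S, lay within the PCDH range (log2 fold change -0.01, interval -0.19 to 0.17). DBP stood at 12.0, 12.1 and 13.6 CPM in C269S and overlapped PCDH only at its lowest PCDH library of 13.2 CPM (log2 fold change -0.26, SE 0.13, interval -0.51 to 0.00).

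PER2 stood at 26.6, 23.1 and 23.0 CPM in C269S, above all PCDH libraries (log2 fold change 0.28, SE 0.10), much as in IDH1mt. The other genes had log2 fold changes between -0.12, for PER3, and 0.09, for NR1D2. A gene that was not called is not thereby shown to be equal between the groups, and the intervals give the sizes these libraries allow.

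The C269S libraries were set against IDH1mt for the effect of replacing the cysteine. The genes higher in C269S were NR1D1, PER1, CRY2 and DBP, the genes lower in IDH1mt than in PCDH, and these comparisons share the IDH1mt libraries. They were 4 of the 10, where 2.29% of all genes were called higher and 2.61% lower. Of the 10, 0 were lower (0 also in DESeq2 and limma, and 0 at an unadjusted p under 0.05 in edgeR). At that unadjusted threshold 1416 of all 16874 genes were lower. The median log2 fold change of the 10 was 0.19, beside 0.00 over all genes. With library size alone, 60.1% of all called genes were higher, against 46.8% with TMM, and the 4 calls stood.

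NR1D1 was 1.59-fold higher in C269S (209 ± 11.2 CPM) than in IDH1mt (131 ± 3.82 CPM; log2 fold change 0.67, SE 0.06; SD, n = 3 each). PER1 was 1.48-fold higher, at 107 ± 9.64 CPM in C269S and 72.5 ± 6.72 CPM in IDH1mt. DBP was 1.66-fold higher, at 12.6 ± 0.880 CPM in C269S and 7.60 ± 0.863 CPM in IDH1mt. In all of these the C269S libraries lay above every IDH1mt library. CRY2 was 1.25-fold higher, at 33.6 ± 0.919 CPM in C269S and 26.8 ± 1.16 CPM in IDH1mt. Its call was lost when any of the 6 libraries of these groups was left out (log2 fold change 0.30 to 0.36) and in limma on log2 FPKM.

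Of the genes not called, NR1D2 stood at 113, 113 and 100 CPM in C269S, above all IDH1mt libraries (log2 fold change 0.21, SE 0.07). It was called when the 6 libraries were fitted alone or without PCDH replicate 3 (log2 fold changes 0.20 and 0.21). CRY1, at 21.7, 21.5 and 19.8 CPM in C269S, also lay above the IDH1mt libraries (log2 fold change 0.18, SE 0.10). PER2, PER3, ARNTL and CLOCK overlapped between the mutants, with log2 fold changes of 0.02, 0.05, 0.02 and -0.01. The 95% interval for PER2 ran from -0.18 to 0.22.

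**Figure D3:**
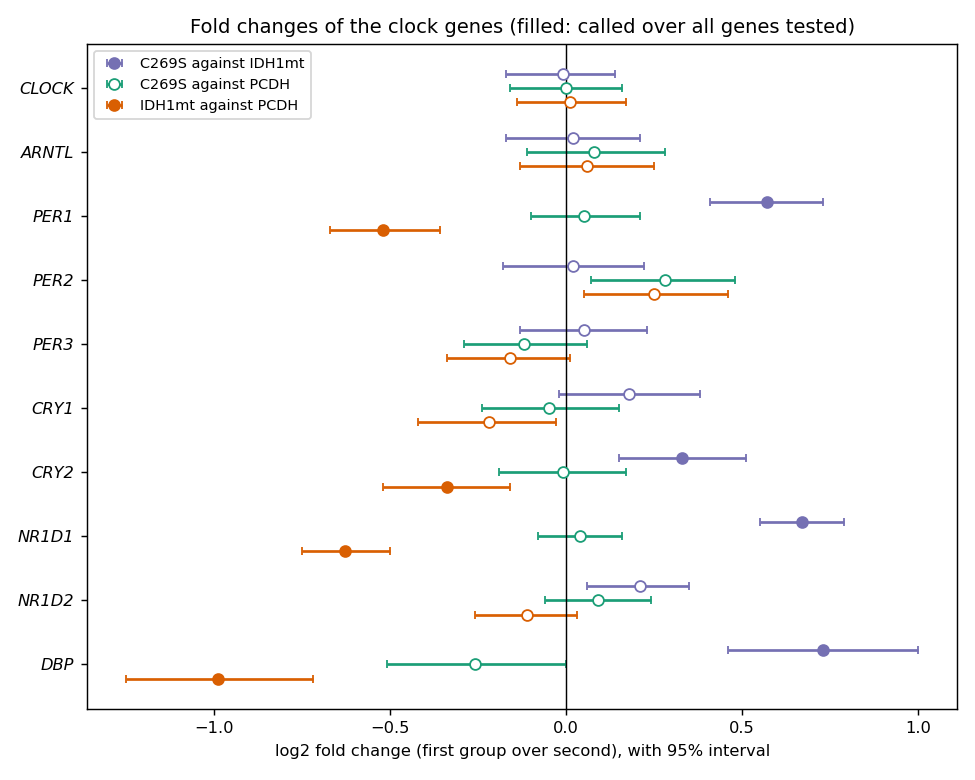
Log2 fold change of each clock gene in the 3 comparisons, the group named at the start of each comparison over the other, with 95% intervals; filled points were called over all 16874 genes and open points were not. DBP, NR1D1 and PER1 lie at -0.99, -0.63 and -0.52 in IDH1mt against PCDH and at 0.73, 0.67 and 0.57 in C269S against IDH1mt, and C269S against PCDH has no filled point.

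Ratios between clock transcripts of the same library set the genes against each other without a scaling factor. They are made from the values given above for genes picked on these libraries, so they restate those differences and add no separate support. The log2 FPKM ratio of ARNTL to NR1D1, the activator over its repressor, was -4.30 ± 0.20 in C269S, -3.65 ± 0.09 in IDH1mt and -4.33 ± 0.09 in PCDH (SD, n = 3 each). Every IDH1mt library, from -3.71 to -3.54, lay above all others, of which the highest was -4.08 in C269S replicate 2. The ratio of PER1 to PER2 was 2.12 ± 0.11 in C269S, 1.58 ± 0.14 in IDH1mt and 2.35 ± 0.07 in PCDH on the same scale. The C269S libraries, at 2.09, 2.04 and 2.24, lay between the other groups without touching either. The ratio of NR1D1 to NR1D2 was 2.01 ± 0.13 in C269S, 1.55 ± 0.09 in IDH1mt and 2.07 ± 0.20 in PCDH. C269S and PCDH overlapped in it and IDH1mt lay below both.

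**Figure D4:**
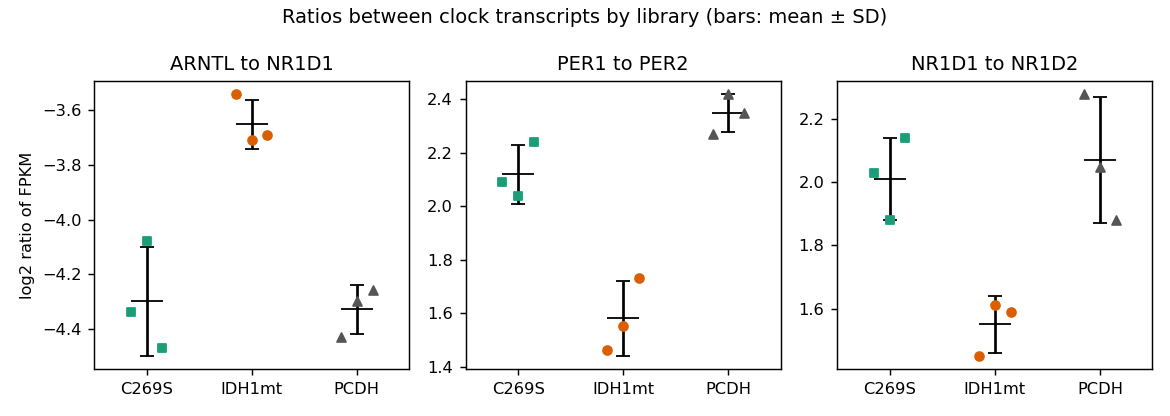
Log2 ratio of FPKM between pairs of clock transcripts in each library, for C269S, IDH1mt and PCDH from left to right; points are libraries, bars are mean ± SD, and the axes do not start at 0. The 3 IDH1mt libraries stand apart in each ratio, with ARNTL to NR1D1 at -3.65 on average against -4.33 in PCDH.

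Around the 10 genes, 42 further genes tied to the clock were followed, of which 40 could be tested. All of these were also listed with earlier results from these libraries known. Their adjusted p-values therefore describe these libraries and are not independent support. FBXL21, an F-box gene, was at 0 in all libraries, and USP2, a deubiquitinase gene, was too low. In IDH1mt against PCDH, 3 of the 40 rose, 9 fell and 28 did not pass, beside 7.18% and 6.90% of all genes, with a median log2 fold change of -0.02. The repressors and the D-box factors held most of the larger changes. Most kinases, cofactors and other activators moved little. Of the 8 kinase genes 1 fell and 7 did not pass, and of the 8 cofactor genes 1 fell and 7 did not pass.

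BHLHE40 (DEC1), a repressor that competes for E-boxes and is also known as a hypoxia-induced gene, stood at 581, 583 and 585 CPM in IDH1mt, against 329, 345 and 341 CPM in PCDH. It rose 1.72-fold (log2 fold change 0.79, SE 0.05, edgeR adjusted p = 7.6e-13). Its paralog BHLHE41 (DEC2) went the other way, at 121, 129 and 125 CPM in IDH1mt, against 195, 193 and 208 CPM in PCDH. BHLHE41 fell 1.59-fold (log2 fold change -0.67, SE 0.06, edgeR adjusted p = 2.9e-10). CIART, a repressor of the CLOCK and ARNTL pair, stood at 7.28, 6.59 and 6.86 CPM in IDH1mt, against 11.2, 12.1 and 12.1 CPM in PCDH, and fell 1.70-fold (edgeR adjusted p = 6.2e-05). NFIL3, which opposes DBP at D-boxes, was not called (log2 fold change 0.05, SE 0.09, edgeR adjusted p = 0.771).

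Both relatives of DBP fell as well. TEF stood at 30.8, 30.7 and 31.4 CPM in IDH1mt, against 38.9, 38.8 and 40.2 CPM in PCDH (log2 fold change -0.34, SE 0.08, edgeR adjusted p = 0.00295). HLF, named after its values were seen, was at low counts, with 0.505, 0.329 and 0.536 CPM in IDH1mt, against 1.28, 1.35 and 1.33 CPM in PCDH (log2 fold change -1.53, SE 0.42, edgeR adjusted p = 0.0116). Without IDH1mt replicate 2 HLF was not called (adjusted p = 0.0632 in edgeR). RORA and RORB, which encode ROR receptors, did not pass in any of the 3 comparisons with all 9 libraries. RORA had a log2 fold change of 0.05 (SE 0.09) in IDH1mt against PCDH. NPAS2 and ARNTL2, the paralogs of CLOCK and ARNTL, did not pass in the main fit either, with log2 fold changes of -0.07 and -0.20 in IDH1mt against PCDH. There ARNTL2 was called lower with library size alone, with no low-count filter and without PCDH replicate 1.

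**Figure D5:**
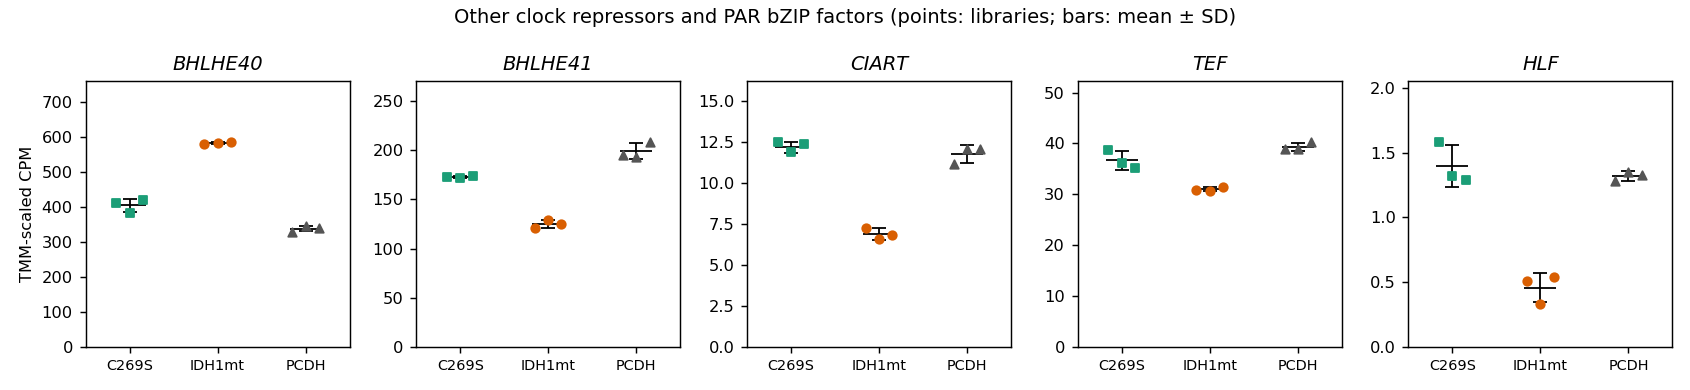
TMM-scaled CPM of repressors and D-box factors outside the 10 genes, in C269S, IDH1mt and PCDH from left to right; points are libraries, bars are mean ± SD, and every axis starts at 0. BHLHE40 is highest in IDH1mt (583 CPM on average), and BHLHE41, CIART, TEF and HLF are lowest there.

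Among the proteins that modify the loop, WDR5, a subunit of histone methyltransferase complexes, fell (log2 fold change -0.38, edgeR adjusted p = 0.00193). CSNK1E, a casein kinase that phosphorylates PER proteins, and TIMELESS, a replication fork protein whose fly relative is a clock gene, fell slightly and were named after their values were seen (log2 fold changes -0.23 and -0.31; edgeR adjusted p = 0.0176 and 0.0164). CSNK1E lost its call without IDH1mt replicate 1 or 3 or PCDH replicate 1 or 2 (adjusted p = 0.0633, 0.102, 0.0579 and 0.144 in edgeR), and TIMELESS without IDH1mt replicate 2 (adjusted p = 0.15).

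Among the output genes, NAMPT, the rate-limiting enzyme of NAD salvage, and KLF9 fell by 0.23 and 0.29 on the log2 scale in IDH1mt (edgeR adjusted p = 0.00438 and 0.0322). KLF9, a zinc-finger factor named after its values were seen, lost its call without IDH1mt replicate 1 or 3 or PCDH replicate 2 or 3 (adjusted p = 0.0655, 0.175, 0.113 and 0.0524 in edgeR), and with the replicate number as a block (adjusted p = 0.0522). Without PCDH replicate 3 NAMPT was still called, with a log2 fold change of -0.15 in place of -0.23. In limma on log2 of FPKM plus 1 or plus 0.1, NAMPT, KLF9, CSNK1E and TIMELESS were not called in IDH1mt against PCDH (adjusted p from 0.0588 to 0.097), which left 8 linked genes called, against 12.

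In C269S against PCDH, 2 of the 40 linked genes rose, 0 fell and 38 did not pass, with a median of 0.02. Over all genes 0.883% were called higher and 0.533% lower. DESeq2 had 1 linked gene lower, BHLHE41, and limma 0. At an unadjusted p under 0.05 in edgeR 1 linked gene was lower, beside 979 of all 16874 genes. BHLHE40 rose 1.20-fold, at 411, 384 and 421 CPM in C269S (log2 fold change 0.26, SE 0.05, edgeR adjusted p = 0.00412). PPARGC1A, a coactivator of mitochondrial genes, was the other (12.7 CPM in C269S and 8.55 CPM in PCDH, edgeR adjusted p = 0.0405). That call was lost without C269S replicate 1 or 2, IDH1mt replicate 1 or 3 or PCDH replicate 1 or 2, with adjusted p from 0.0558 to 0.299 in edgeR. It was lost with the replicate number as a block too (adjusted p = 0.0893) and with library size alone (adjusted p = 0.0535). Without PCDH replicate 3 the linked genes called numbered 4, all higher, RORA among them, and leaving out each of those 6 libraries in turn gave 1.

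In C269S against IDH1mt, 4 of the 40 rose, 2 fell and 34 did not pass, with a median of 0.03. Over all genes 2.29% were called higher and 2.61% lower. BHLHE40 was 1.44-fold lower in C269S (edgeR adjusted p = 1.5e-08), and BHLHE41 and CIART were 1.39-fold and 1.77-fold higher (edgeR adjusted p = 8.4e-07 and 5.9e-05). HLF and NAMPT were higher (log2 fold changes 1.61 and 0.22; edgeR adjusted p = 0.0188 and 0.0124). HLF lost its call without C269S replicate 1 or IDH1mt replicate 1 or 2 (edgeR adjusted p from 0.0539 to 0.0977). NAMPT lost its call without C269S replicate 1 or 2 or IDH1mt replicate 2 or 3 (edgeR adjusted p from 0.0557 to 0.1), and in limma on log2 of FPKM plus 1 or plus 0.1 (adjusted p = 0.117 and 0.115). HLF was also not called in limma with FPKM plus 1 (log2 difference 0.18, adjusted p = 0.0526). DESeq2 gave HLF a log2 fold change of 1.62 but no adjusted p, so HLF was not among its calls. TEF was not called (log2 fold change 0.24, SE 0.08, edgeR adjusted p = 0.0822). Without PCDH replicate 3 the linked genes called in this comparison numbered 9, against 6, with TEF and WEE1, a cell cycle kinase gene, among those higher. WEE1 and RORA were named after their values were seen.

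DBP and NR1D1 had the widest spread of group means among the clock genes, 0.98 and 0.67 in log2 CPM, against 0.02 for CLOCK. Over the 9 libraries, the protein-coding genes of 13360 compared whose log2 CPM ran most like DBP were CCDC163 (Pearson r = 0.989), DNAJB1 (0.987), PIP4P1 (0.979), TMEM147 (0.978) and WWC3 (0.977). Those most like NR1D1 were SRF (0.987), PLPPR4 (0.982), PPIF (0.978), WWC3 (0.976) and ATIC (0.974). SRF, a transcription factor, averaged 28.4 CPM in C269S, 20.6 CPM in IDH1mt and 27.1 CPM in PCDH. These values describe likeness across 9 libraries in 3 groups, which share the group differences, and were not tested.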

How the data were processed

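Total RNA was isolated with the RNeasy Mini Kit, per the labels' protocols, and the library kit, read length and strand setting are not given in the sources used here. Counts of reads per gene were deposited, made by the authors with HISAT2 version 2.0.5 and featureCounts version 1.5.0-p3 on GRCh38 (hg38), per the submitters' processing notes. The deposited FPKM equal the authors' counts divided by gene length and library total, times 1 factor per library between 0.969 and 1.02. Column names gave each group (Control for PCDH, mt for IDH1mt, CS for C269S). The members and lists were chosen with earlier results of these data known.

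Genes were kept by filterByExpr, libraries scaled by TMM, and the 9 libraries fitted together with a mean per group in edgeR version 4.0.16 (quasi-likelihood F test, robust) under R version 4.3.3. P-values were adjusted by Benjamini and Hochberg over all 16874 genes. SE is the absolute log2 fold change over the square root of F, and 95% intervals use its t quantile. Totals of 19108925 to 24803711 counts set the precision. Pairs of libraries within a group differed by at least 3.63 times counting noise (chi-square over its degrees of freedom), so none was a copy. The edgeR fit was tested on simulated data. Alternatives included DESeq2 version 1.42.0 and limma version 3.58.1 on log2 of FPKM plus 1 or plus 0.1. Named were all 10 members, genes overlapping them, up to 5 called linked genes per comparison and direction with the lowest p, and the 5 genes most like each of the 2 widest-ranging members. Some linked genes that are counted are not reported here by name.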

Additional observations from a re-analysis of the deposited data

How the results depend on the processing

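The 4 clock genes called lower in IDH1mt than in PCDH kept that direction under all 18 alternatives with a value, and NR1D1, PER1 and DBP kept their calls in all of them, also in C269S against IDH1mt. Leaving out single libraries gave 3 to 4 clock genes called in IDH1mt against PCDH, 0 to 0 in C269S against PCDH and 3 to 5 in C269S against IDH1mt. For DBP, limma on log2 of FPKM plus 1 gave -0.60 in place of -0.99 and 0.43 in place of 0.73, since the pseudocount shrinks low values. For HLF, limma on FPKM plus 1 and plus 0.1 gave -0.16 and -0.82 in place of -1.53, and 0.18 and 0.88 in place of 1.61, and for PPARGC1A 0.28 and 0.52 in place of 0.56. Of the linked genes, leaving out single libraries gave 10 to 12 called in IDH1mt against PCDH, 1 to 4 in C269S against PCDH and 4 to 9 in C269S against IDH1mt. In C269S against PCDH the count of 2 linked genes was 1 with the 6 libraries alone, with the replicate block, with limma on FPKM plus 1 or plus 0.1, and at an adjusted p under 0.01. The cause was not tested. Same-numbered libraries did not deviate together (correlations of -0.09 to 0.06). That cannot show whether they were handled together, and the labels do not say whether the numbers pair the samples. With the replicate block 4, 0 and 4 clock genes and 11, 1 and 6 linked genes were called in IDH1mt against PCDH, C269S against PCDH and C269S against IDH1mt. Depth limits HLF, USP2 and FBXL21 most, at under 2 CPM.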
